A study of Mus musculus with 6 samples.

Results

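The chromatin of 9 genes that build the CD3 complex and the first steps of T-cell receptor (TCR) signalling was examined in peripheral-blood leukocytes: Cd3d, Cd3e, Cd3g, Cd247, Lck, Zap70, Lat, Cd28 and Cd5. The assay was ATAC-seq: the transposase Tn5 cuts DNA where chromatin is open and leaves sequencing adapters there, so that fragments pile up into peaks. The deposited data were the peaks called in each library. A region was a stretch covered by 1 or more peaks of any library, and it was assigned to a gene if a peak summit lay in the gene body or within 3 kb of an annotated transcription start. By this rule 29 of 62876 regions belonged to the 9 genes, and 17 of these 29 had a peak in all 6 libraries.

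The mice were male C57BL/6j animals, 8 weeks old at the start. The 3 HADA (high-altitude de-acclimatization) mice had lived for 28 days in a hypobaric chamber at a simulated altitude of 6000 m and had then been returned to normal oxygen. The 3 control mice had stayed in normal oxygen. Per the labels, blood was freed of red cells by lysis and the leukocytes were not sorted, so each library mixed T cells with other blood cells. The study's methods also name leukocytes, but its results name mononuclear cells, which would hold few neutrophils, and this bears on the values at neutrophil genes. In such a mixture, fewer T cells and less open chromatin per T cell cannot be told apart. The time of the blood draw after return was not given in the sources used here. Nothing in them ties a control library to the HADA library of the same number, and p-values measure only the spread between these libraries.

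T cells recognise antigen through a receptor whose antigen-binding chains have no signalling tail of their own. Signals pass through the CD3 gamma, delta and epsilon chains and the zeta chain, encoded by Cd3g, Cd3d, Cd3e and Cd247. The kinase Lck phosphorylates the tyrosine motifs of these tails, the kinase ZAP-70 docks on them, and ZAP-70 phosphorylates the adaptor LAT, on which the downstream complexes assemble. CD28 gives the costimulatory signal, and CD5 dampens the signal from the receptor. These genes are used mainly by T cells, with some also active in natural killer cells and CD5 in a subset of B cells.

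Sequences of 8 windows are shown: 5 at regions called higher in HADA mice or at the start of such a gene, 2 at regions listed in all HADA and no control libraries, and 1 at a repeat that limits its own value. None of these windows overlaps an annotated exon. Each is the median of the library summits with 50 bases of GRCm39 on either side, on the strand of its gene. Lat is the exception: its summit window reached the first exon, so a window of the same length just upstream of the start is given. Capitals mark matches, on either strand, to short core sequences of 6 factor families active in lymphocytes: ETS, RUNX, TCF/LEF, E-box, GATA and AP-1.
Zap70 +5.08 kb (chr1:36805872-36805972, plus strand): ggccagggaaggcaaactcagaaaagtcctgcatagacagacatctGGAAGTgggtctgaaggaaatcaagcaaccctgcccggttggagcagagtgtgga
Cd5 −1.83 kb (chr19:10718142-10718242, minus strand): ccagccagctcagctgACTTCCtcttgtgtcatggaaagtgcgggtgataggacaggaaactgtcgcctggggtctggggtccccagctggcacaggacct
Cd5 −0.07 kb (chr19:10716381-10716481, minus strand): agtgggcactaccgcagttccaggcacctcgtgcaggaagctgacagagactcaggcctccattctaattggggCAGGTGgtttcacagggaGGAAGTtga
Lat, upstream of the start (chr7:125968811-125968911, minus strand): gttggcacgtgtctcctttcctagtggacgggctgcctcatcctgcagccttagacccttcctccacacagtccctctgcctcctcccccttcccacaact
Cd247 +56.24 kb (chr1:165672439-165672539, plus strand): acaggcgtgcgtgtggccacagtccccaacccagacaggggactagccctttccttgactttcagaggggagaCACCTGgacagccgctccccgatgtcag
Cd247 +40.14 kb (chr1:165656338-165656438, plus strand): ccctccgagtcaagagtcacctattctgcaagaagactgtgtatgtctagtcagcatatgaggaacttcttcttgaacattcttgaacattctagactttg
Cd247 +65.08 kb (chr1:165681277-165681377, plus strand): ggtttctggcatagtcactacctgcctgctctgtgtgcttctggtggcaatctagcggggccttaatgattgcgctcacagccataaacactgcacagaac
Cd247 +75.19 kb (chr1:165691388-165691488, plus strand): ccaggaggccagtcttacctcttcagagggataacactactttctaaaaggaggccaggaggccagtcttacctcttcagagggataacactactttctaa

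The windows of Zap70 +5.08 kb and of both Cd5 regions each held an ETS core, and those of Cd5 −0.07 kb and Cd247 +56.24 kb held an E-box core. The Lat window and the windows at Cd247 +40.14, +65.08 and +75.19 kb held none of the 6 cores. The ETS core, spelled GGAAGT, was found in 6 of the 29 regions (20.7%, against 10.8% of the windows of all regions), and the E-box core, spelled CAGGTG, was also found in 6 (20.7% against 8.59%). The TCF/LEF core, spelled CTTTGA, was found in 3 regions (10.3% against 5.95%), and the RUNX core, spelled TGTGGTT, in 2 regions (6.90% against 3.71%). The GATA core, spelled AGATAA, was found in 1 region (3.45% against 3.70%), and the AP-1 core, spelled TGACTCA, in 0 regions (against 1.93%). These 6 cores share no overlapping letters with each other in the windows printed. The core sequences were chosen with earlier results of these data known, and a match is a description of the letters only. The window at Cd247 +75.19 kb is a repeat, as its letters show: the 50 bases at its summit occur 15 times in the genome, and reads from such sequence cannot be placed on a single copy. The summits of the other 28 regions were unique.

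The accessible regions were spread unevenly over the 9 genes. Cd247 had 10 of them along its 88.6 kb, Lck and Cd5 had 4 each, Cd28 had 3, Zap70 and Cd3e had 2 each, and Lat had 1. Cd3d and Cd3g, which lie head to head on chromosome 9, had 2 each, of which 1 was the same region near the start of Cd3g. The positions given with each region are those of the median of its library summits, in kb from the canonical start along the strand of the gene.

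**Figure D1:**
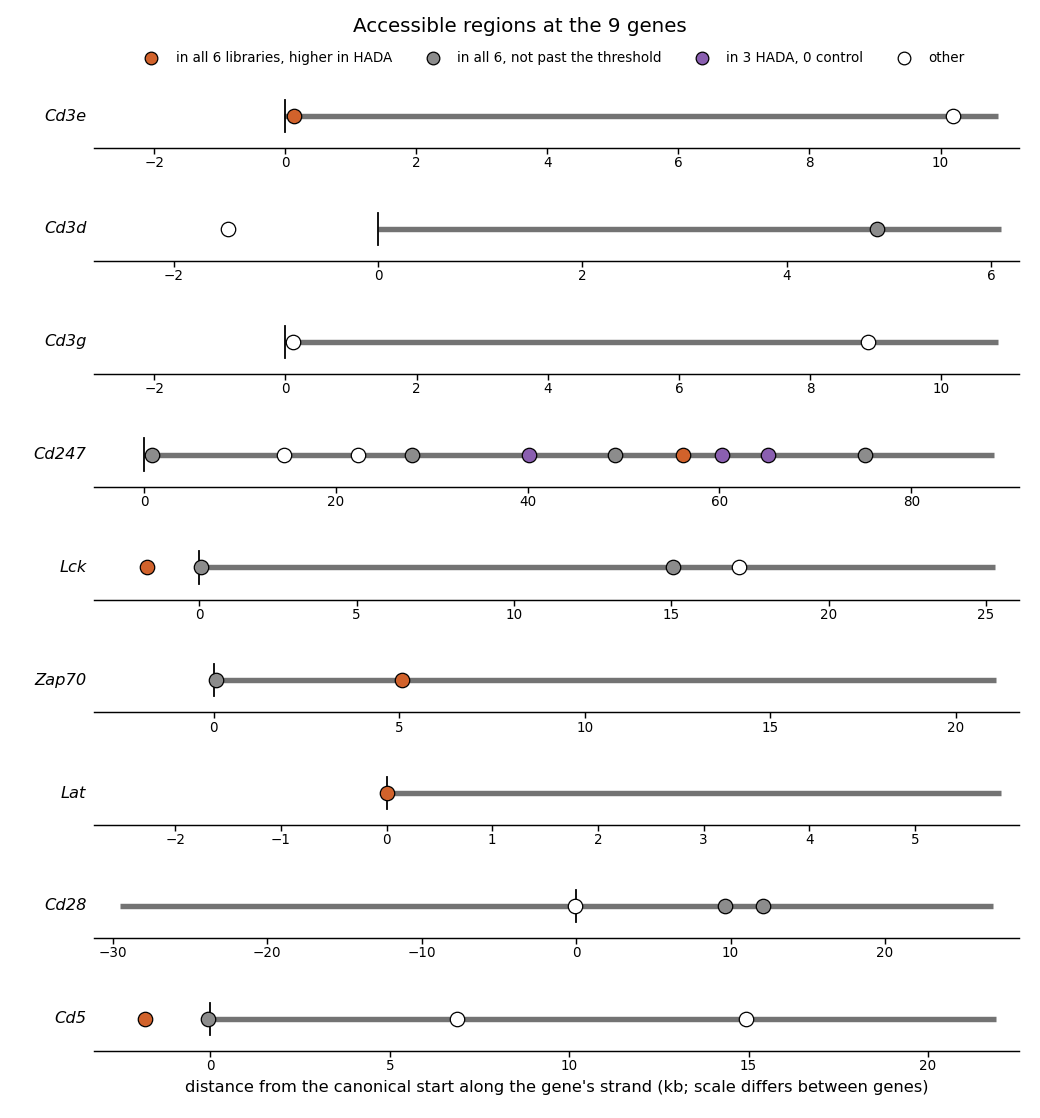
Map of the 29 regions along the 9 genes, each gene drawn as a grey bar with its canonical start as a vertical line and with its own scale in kb. Filled circles are regions listed in all 6 libraries (orange, 6 regions higher in HADA at an adjusted p below 0.05; grey, 11 regions not past it), purple circles are the 3 regions listed in all HADA and no control libraries, all in Cd247, and open circles are the other 9 regions.

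The lists held 34045 to 41475 peaks in control mice and 44044 to 45799 in HADA mice. The background pileup, a stand-in for depth, was 1.69 to 2.05 in control mice and 1.99 to 2.34 in HADA mice, and the lowest summit pileup listed was 7 to 9, depending on the library. The summit pileup, the number of fragments stacked over the summit of a peak, was the measure of accessibility. Whether the peak caller stacked whole fragments or extended reads is not given in the sources used here. Pileups were compared on the log2 scale after each library was centred on the median of the 23970 regions listed in all 6 libraries, and a difference is always HADA minus control. Control 3 stood apart from the other control libraries: the mean centred pileup over 9 regions of B-cell genes was −1.31 there against 0.22 and −0.22 in control 1 and 2, and that over 9 regions of neutrophil genes was 0.70 against −0.21 and −0.36. In 13 of the 17 regions of the 9 genes that had a peak in all libraries, control 3 had the lowest pileup of the control libraries.

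Every region of the 9 genes whose difference passed the test was more accessible in HADA mice. Of the 17 regions, 6 were called higher by limma at an adjusted p below 0.05, where 18.4% of all 23970 regions were called higher, and 0 were called lower, where 24.5% of all regions were. The 6 lay at Cd3e, Lat, Lck, Zap70, Cd247 and Cd5. The difference was positive in 15 of the 17 regions, with a median of 0.59 against −0.04 over all regions, and in 9 of the 17 the 3 HADA libraries lay above the 3 control libraries without overlap, where 29.3% of all regions did. Without control 3 the count was also 6, with Cd247 +27.98 kb called in place of Cd3e, and the median was 0.41. Without control 3, 20% of all regions were called higher and their median was 0.03.

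The count depended on how the libraries were scaled. When pileups were divided by the background of the library, which moves the median of all regions by 0.38, from −0.04 to 0.34, 11 of the 17 regions were higher and 0 lower, against 32.2% of all regions called higher and 17.6% called lower. When each peak was ranked within its own library by the fold enrichment over local background, only Cd3e was called higher and 0 regions lower, against 6.57% of all regions called higher and 4.79% called lower. Without HADA 2, 1 of the 17 was called higher, at Lat, when 5.4% of all regions were. Without HADA 3, Lat and Lck −1.67 kb were called, when 7.71% of all regions were.

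**Figure D2:**
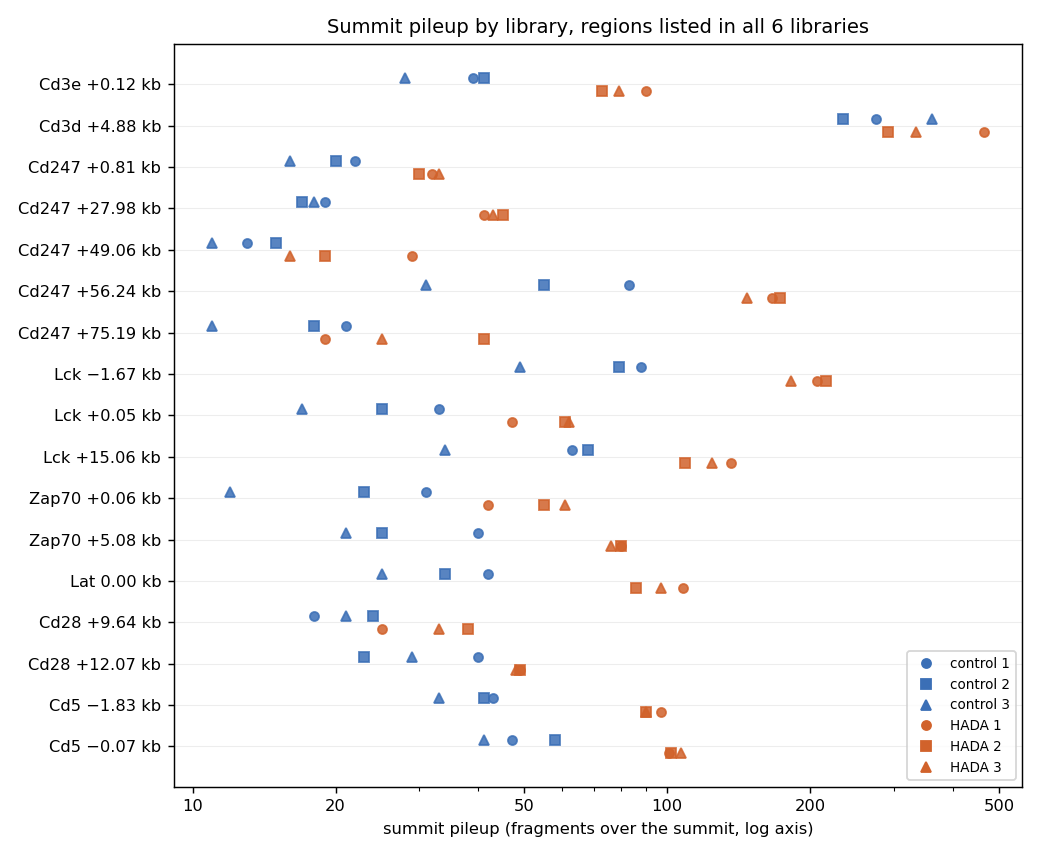
Summit pileup in each library (log axis) for the 17 regions listed in all 6 libraries, blue for control and orange for HADA, with 1 marker shape for each replicate number and no scaling between libraries. On this unscaled axis the HADA libraries lie above the control libraries in 15 regions, as they do in 57.9% of all 23970 regions, and the groups overlap in Cd3d +4.88 kb and Cd247 +75.19 kb.

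Of the CD3 chains, the start of Cd3e, which encodes CD3 epsilon, was more accessible in HADA mice. The gene lies at chr9:44910037-44920925 on the minus strand, and the region covered chr9:44920449-44921419, from upstream of the start into the first intron, where it also overlaps the annotated gene Gm48720. The summit pileup was 39, 41 and 28 in control libraries 1, 2 and 3, and 90, 73 and 79 in HADA libraries 1, 2 and 3. Every HADA library lay above every control library, by raw pileup and after centring.

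The difference at Cd3e was 0.55 ± 0.19 (SE, n = 3 and 3), or 1.47-fold, with an adjusted p of 0.0422. Cd3e was also the only one of the 17 regions called by the rank of its fold (adjusted p = 0.0403): its fold over local background was 8.56, 9.03 and 8.37 in control libraries and 12.8, 11.8 and 11.7 in HADA libraries. The call rested on a small margin, since it was lost without control 1, control 3 or any of the HADA libraries, with adjusted p-values of 0.0529 to 0.134. The other Cd3e region, +10.19 kb into the gene, had a peak in HADA 1 alone, with a pileup of 13.

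Cd3d, which encodes CD3 delta, held the tallest region of the set, and its height did not separate the groups. This region, at chr9:44897151-44898539, lay +4.88 kb into the gene, over an exon and 712 bp downstream of an internal annotated start. Its pileup was 276, 235 and 362 in control mice and 465, 292 and 334 in HADA mice, which puts its mean level at the 94.2 percentile of all regions listed in all libraries. The next highest level among the 17 was at the 70.8 percentile, upstream of Lck. Control 3, which stood apart at B-cell and neutrophil genes, was the highest control library at Cd3d, whereas it was the lowest in 13 of the other 16 regions.

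The centred difference at Cd3d +4.88 kb was −0.31 ± 0.22 with a 95% interval of −0.80 to 0.18 and an adjusted p of 0.267. Its sign depended on the scaling: over background it was 0.07, and by fold rank 0.01. It also rested on control 3, without which it was −0.071 (adjusted p = 0.680).

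The start of Cd3g, which encodes CD3 gamma, had a weak region shared by rule with Cd3d (chr9:44891339-44891992). Its pileup was 20 in control 1 and 23, 32 and 30 in the HADA libraries, and control 2 and control 3 had no peak there. A peak within the body of Cd3g, +8.88 kb from the start, appeared in control 3 alone with a pileup of 18. Cd3g thus had no region that could be compared in all 6 libraries, and a library without a peak has no pileup value, which is not the same as no accessibility.

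Cd247, which encodes the zeta chain, had the most regions, and the one called higher in HADA mice lay deep inside the gene. The gene spans chr1:165616250-165704846 on the plus strand. At its start (+0.81 kb, chr1:165616043-165618209, which also overlaps Gm16565) the pileup was 22, 20 and 16 in control mice and 32, 30 and 33 in HADA mice. The summits of this region lay up to 1400 bp apart between libraries. After centring, the groups overlapped there and the difference was 0.10 ± 0.23, with a 95% interval of −0.41 to 0.61 and an adjusted p of 0.743.

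The tallest Cd247 region lay in an intron at +56.24 kb (chr1:165671896-165673210, overlapping the annotated genes Gm32999, Gm37856 and Gm71096), with the E-box core shown above. Its summits lay up to 375 bp apart between libraries, so the window shown does not hold all of them. Its pileup was 83, 55 and 31 in control mice and 166, 173 and 147 in HADA mice. Every HADA value exceeded every control value, and control 3 was the lowest. The difference was 1.01 ± 0.28, or 2.01-fold, with an adjusted p of 0.0192. The call was lost without HADA 2 (adjusted p = 0.0846) and without HADA 3 (0.0508). Without control 3 it was kept, with a difference of 0.70 (0.0124).

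Another intronic Cd247 region, at +27.98 kb, had pileups of 19, 17 and 18 in control mice and 41, 45 and 43 in HADA mice. These groups were also apart, with a difference of 0.63 ± 0.23, and the adjusted p of 0.0507 fell just outside the threshold. The remaining 2 regions listed in all libraries were weak. At +49.06 kb the pileup was 11 to 15 in control mice and 16 to 29 in HADA mice, with a difference of 0.05 ± 0.27. At the repeat at +75.19 kb it was 11 to 21 and 19 to 41, with a difference of 0.12 ± 0.37.

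Because the start and the inner regions of Cd247 were measured in the same library, their ratio needs no scaling between libraries. The start region is 2167 bp wide, and its summits lay up to 1400 bp apart between libraries. Its pileup was therefore not read at the same position in every library. The pileup at +56.24 kb divided by that at the start was 3.77, 2.75 and 1.94 in control libraries and 5.19, 5.77 and 4.45 in HADA libraries. At +27.98 kb the ratio to the start was 0.86, 0.85 and 1.13 in control mice and at least 1.28 in each HADA mouse. Both ratios were higher in every HADA library than in every control library, and each gave an exact permutation p of 0.1 (two-sided), the smallest that 3 libraries against 3 can give, so no such ratio could pass 0.05 with or without adjustment. Among 9 such ratios formed within Cd247, Lck, Zap70, Cd28 and Cd5, these 2 were the ones without overlap, and they were formed after the values were seen.

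Cd247 also held the regions listed in all HADA libraries and in no control library. It had 5, 7 and 5 peaks in control mice and 10, 9 and 8 in HADA mice. There were 3 such regions among the 29, against 7.01% of all 62876 regions, and all 3 lay in introns of Cd247. None of the 29 was listed in all control and no HADA libraries, against 1.88% of all regions.

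The first of the 3, at +40.14 kb (chr1:165655791-165656977), had pileups of 23, 17 and 24 over a local background of 3.37 to 3.70 fragments. The second, at +60.29 kb (chr1:165676436-165676941, overlapping Gm37469), had the highest pileups, 53, 57 and 54, but stood in open surroundings with a local background of 20.9 to 21.7, so that its fold was only 2.42 to 2.65. The third, at +65.08 kb (chr1:165680866-165681723), had pileups of 41, 38 and 31 over a background of up to 8.94. When the same number of strongest peaks, 34045, was taken from each library, each of the 3 kept a peak in 1 or 2 of the HADA libraries, so the count of regions in all HADA and no control libraries fell to 0 at the 9 genes, against 5.84% of all 50798 regions of the shortened lists.

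The other Cd247 regions were found in fewer libraries. The region at +14.64 kb had a peak in control 2 (13 fragments) and HADA 1 (19). The region at +22.34 kb had a peak in HADA 1 (26) and HADA 2 (19).

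**Figure D3:**
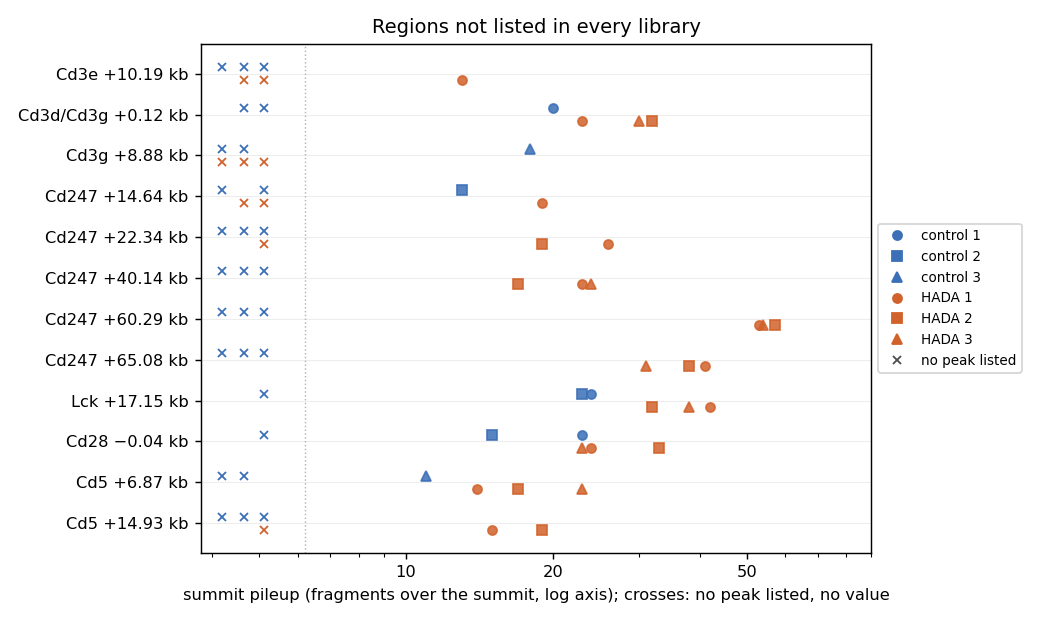
Summit pileup (log axis) in the 12 regions of the 9 genes that lacked a peak in at least 1 library, blue for control and orange for HADA. Crosses left of the dotted line mark libraries with no peak listed and carry no value. The 3 Cd247 regions at +40.14, +60.29 and +65.08 kb have crosses for all control libraries and values of 17 to 57 for all HADA libraries.

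Lck encodes the kinase that starts the cascade, and its transcription in T cells comes from a distal and a proximal promoter. The gene lies at chr4:129442137-129467434 on the minus strand. Its most accessible region lay upstream of the distal start, at −1.67 kb (chr4:129468865-129469505), where an exon of Gm68905 is annotated. The pileup there was 88, 79 and 49 in control mice and 207, 216 and 182 in HADA mice. The groups did not overlap, and the difference was 0.90 ± 0.20, or 1.87-fold, with an adjusted p of 0.0096. The call was lost without HADA 2 (0.0533).

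Inside Lck, a region 181 bp upstream of an internal annotated start (+15.06 kb, chr4:129452046-129452686) had pileups of 63, 68 and 34 in control mice and 136, 109 and 124 in HADA mice. The groups were apart after centring, but the difference of 0.59 ± 0.23 had an adjusted p of 0.0593, and without control 3 the difference was 0.35. At the distal start itself (+0.05 kb, chr4:129467181-129467689) the pileup was lower, 33, 25 and 17 against 47, 61 and 62. The centred groups overlapped there, with a difference of 0.60 ± 0.27 and an adjusted p of 0.104.

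Within Lck, the ratio between regions did not separate the groups. The ratio of the upstream region to the distal start was 2.67, 3.16 and 2.88 in control mice and between 2.94 and 3.54 in HADA 3 and HADA 2, with a higher value in HADA 1, and that of the inner region to the distal start was 1.91 to 2.72 and 1.79 to 2.89. Both ratios overlapped between groups. A further region at +17.15 kb, 28 bp upstream of another internal start, had 24 and 23 fragments in control 1 and control 2, no peak in control 3, and 42, 32 and 38 in the HADA libraries.

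Zap70, the kinase that docks on the phosphorylated tails, had a region at its start and another inside the gene (chr1:36800837-36821905, plus strand). The inner region, at +5.08 kb (chr1:36805641-36806886), lay 93 bp upstream of an internal annotated start, with the ETS core shown above. Its summits lay up to 522 bp apart between libraries, so the window shown does not hold all of them. Its pileup was 40, 25 and 21 in control mice and 80, 80 and 76 in HADA mice. The HADA values were close to each other and all above the control values, and the difference was 0.89 ± 0.24, or 1.85-fold, with an adjusted p of 0.0177. The call was lost without HADA 2 (0.0828) and without HADA 3 (0.0606).

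At the start of Zap70 (chr1:36800373-36801368) the pileup was 31, 23 and 12 in control mice and 42, 55 and 61 in HADA mice. After centring, the highest control library overlapped the lowest HADA library. The difference was 0.72 ± 0.33, with a 95% interval of −0.03 to 1.48 and an adjusted p of 0.106, and without control 3 it was 0.41. The ratio of the inner region to the start was 1.29, 1.09 and 1.75 in control mice and 1.90, 1.45 and 1.25 in HADA mice, which overlapped.

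Lat, the adaptor that ZAP-70 phosphorylates, gave the one call of the 6 that held whichever library was left out. Its 1 region, chr7:125968094-125969263, covered the start of the gene (chr7:125962996-125968810, minus strand) with the summit 1 bp upstream of it, and also overlapped the neighbouring gene Spns1. The pileup was 42, 34 and 25 in control mice and 108, 86 and 97 in HADA mice. All HADA values lay above all control values, and the difference was 0.93 ± 0.20, or 1.90-fold, with an adjusted p of 0.0090. By fold rank the adjusted p was 0.0621. Which of the 2 genes uses this open region cannot be told from the peaks.

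**Figure D4:**
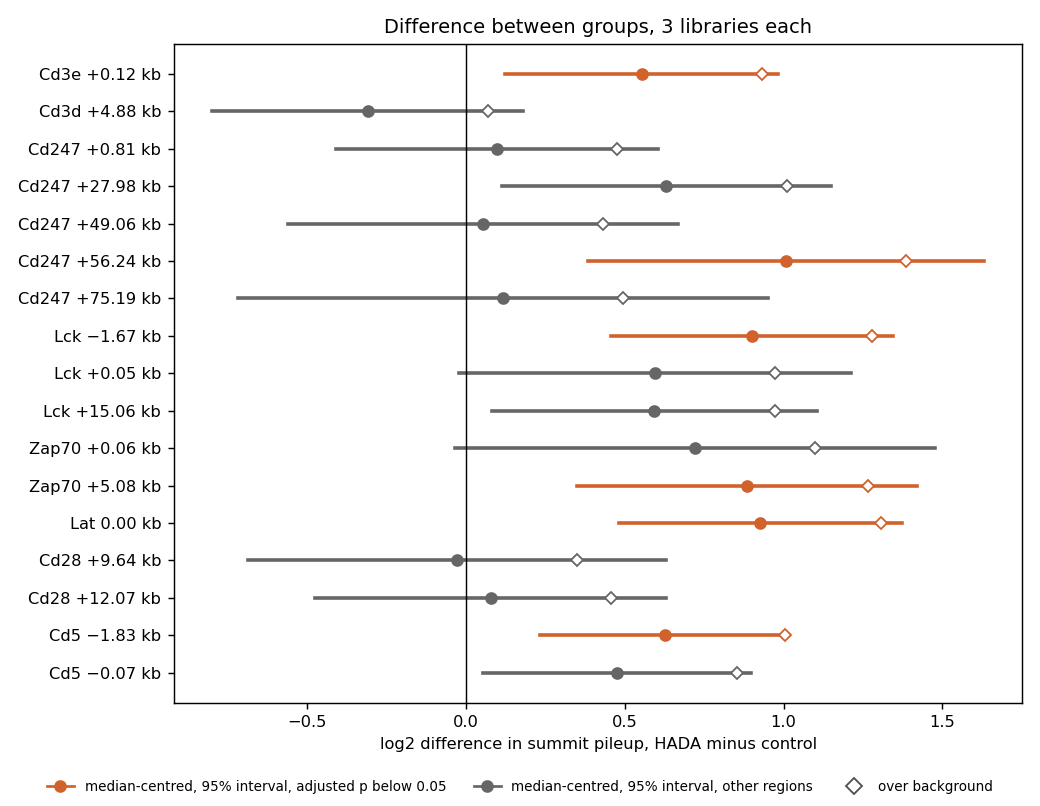
Log2 difference in summit pileup, HADA minus control, for the 17 regions. Circles with lines are median-centred values with their 95% intervals (3 libraries a group), orange where the limma adjusted p was below 0.05, and open diamonds are the same regions scaled by library background, which lie higher by a constant. The 6 orange regions run from 0.55 at Cd3e to 1.01 at Cd247 +56.24 kb, and the lowest region is Cd3d +4.88 kb at −0.31.

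Cd28, which encodes the costimulatory receptor, had 2 regions in all libraries, and the difference at neither exceeded the spread of the libraries. In the gene (chr1:60755959-60812518, plus strand), the intronic region at +9.64 kb (chr1:60794756-60795310) had pileups of 18, 24 and 21 in control mice and 25, 38 and 33 in HADA mice. The centred difference was −0.03 ± 0.29 (adjusted p = 0.942), with a 95% interval of −0.69 to 0.63, and over background it was 0.35. The intronic region at +12.07 kb (chr1:60797138-60797839) had pileups of 40, 23 and 29 in control mice and 49, 49 and 48 in HADA mice. Its difference was 0.08 ± 0.25 (adjusted p = 0.813), with a 95% interval of −0.47 to 0.63.

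The canonical start of Cd28 carried a weak peak, with 23 and 15 fragments in control 1 and control 2, no peak in control 3, and 24, 33 and 23 in the HADA libraries. The intervals at Cd28 reach as far as the difference measured at Cd3e, so a change of that size could not be told from none in these libraries. Whether Cd28 differed from the other 8 genes was not tested.

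Cd5, the inhibitory receptor, had an open start and a second open region upstream. The gene lies at chr19:10694480-10716366 on the minus strand. At −1.83 kb (chr19:10717565-10718572, overlapping A430093F15Rik and Gm59285) the pileup was 43, 41 and 33 in control mice and 97, 90 and 90 in HADA mice. The groups were apart, and the difference was 0.63 ± 0.17, or 1.54-fold, with an adjusted p of 0.0200. The call was lost when any HADA library was left out, with adjusted p-values of 0.0627 to 0.0968.

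At the start of Cd5 (−0.07 kb, chr19:10715947-10716769), whose window held both an E-box and an ETS core, the pileup was 47, 58 and 41 in control mice. In HADA 2 and HADA 3 it was 102 and 107, and in HADA 1 it was 1 fragment below HADA 2. These groups were also apart, with a difference of 0.48 ± 0.19 and an adjusted p of 0.0655. The ratio of the upstream region to the start was 0.91, 0.71 and 0.80 in control mice and 0.96, 0.88 and 0.84 in HADA mice, which overlapped. The 2 weaker Cd5 regions were at +6.87 kb, with 11 fragments in control 3 and 14, 17 and 23 in the HADA libraries, and at +14.93 kb, with 15 and 19 fragments in HADA 1 and HADA 2.

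In number of peaks, the 9 genes had 20, 21 and 19 in control mice and 28, 26 and 24 in HADA mice. Per 10000 peaks of the library these were 4.82, 5.10 and 5.58 in control mice and 6.31, 5.90 and 5.24 in HADA mice. The raw counts did not overlap between groups, and the counts relative to the length of the list did. When summits within 3 kb of a start alone were counted, the mean difference per 10000 peaks changed from 0.65 to −0.11. With libraries left out in turn this difference was 0.41 to 0.94, and with a −log10 q-value of at least 5 it was 1.06.

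Among 47 other genes of the pathway, regions were called in both directions, as they were over all regions. Of their 128 regions listed in all 6 libraries, 25 were higher in HADA mice and 17 lower, against the 18.4% and 24.5% of all regions given above, and the median difference was 0.13. Among the genes with higher regions were Cblb, Csk, Fyn, Grap2, Grb2, Lax1, Nfatc1, Pag1, Plcg1, Ptpn22, Rasgrp1, Skap1, Sla, Txk and Ubash3a. The lower regions lay at Fyb1 (8 of the 17), Ubash3b, Cd6, Dgkz, Grb2, Prkcq, Ptpn6, Ptprc and Trat1. The list counts moved with the setting, to 46 higher and 10 lower over background, to 14 and 5 by fold rank, and to 9 and 7 without HADA 2. The same settings called 32.2%, 6.57% and 5.4% of all regions higher and 17.6%, 4.79% and 11.7% lower.

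Among the higher regions with the smallest p-values were those at Grap2, an adaptor that binds LAT, and at Csk, the kinase that restrains Lck. The Grap2 region at chr15:80498360-80499680 had pileups of 24, 19 and 15 in control mice and 76, 77 and 77 in HADA mice, a difference of 1.39 ± 0.22 (adjusted p = 0.0063). The Csk region at chr9:57547435-57548156 had 121, 103 and 85 against 283, 277 and 245, a difference of 0.77 ± 0.15 (0.0071). Neither pair of groups overlapped.

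The lower regions with the smallest p-values lay at Fyb1, the adaptor ADAP, at Ubash3b, a phosphatase that acts on ZAP-70, and at Ptprc, the phosphatase CD45 of all leukocytes. The Fyb1 region at chr15:6598172-6599338 had pileups of 69, 53 and 60 in control mice and 40, 34 and 33 in HADA mice, a difference of −1.39 ± 0.20 (adjusted p = 0.0063). The Ubash3b region at chr9:41071878-41073232 had 100, 92 and 143 against 68, 45 and 42, a difference of −1.74 ± 0.25 (0.0063). The Ptprc region at chr1:138086089-138087299 had 45, 61 and 81 against 40, 32 and 39, a difference of −1.34 ± 0.28 (0.0085). These 3 genes are also active in other leukocytes than T cells, and control 3 had the highest pileup of the 6 libraries at the Ubash3b and Ptprc regions.

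The labelled tissue was checked against markers of blood cells. All 6 general leukocyte genes, Ptprc, Coro1a, Cd53, Lcp1, Cd52 and Laptm5, had a region in all 6 libraries, and 6 of their 18 such regions were lower in HADA mice and 0 higher. The counts of this and the following marker lists stand against 24.5% of all tested regions called lower and 18.4% called higher. Of 12 T-cell genes outside the 9, 10 had such a region, and Trbc1 had none in any library. Of their 20 regions 5 were higher and 1 was lower (median 0.35), and 4 of the 20 regions also belong to the pathway list. Their summed pileup over background was 351 to 573 in control mice and 751 to 825 in HADA mice, against 390.0 to 544 and 685 to 783 for the 9 genes.

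Markers of other cells moved with the groups as well. At B-cell genes, 8 of 9 regions were higher and 0 lower in HADA mice (median 1.85), and the summed pileup over background was 291 to 492 in control mice and 792 to 917 in HADA mice. At neutrophil genes, 8 of 9 regions were lower and 0 higher (median −1.44), with sums of 219.6 to 485 and 124 to 203, and Camp had no region. At monocyte genes, 9 of 12 regions were lower and 2 higher (median −1.03), with sums of 276 to 389 and 295 to 326.

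The platelet and erythroid genes had 3 such regions, at Klf1 and Itga2b, of which 2 were higher (median 0.64), and Gp9, Ppbp and Gp1ba had no region in any library. The natural killer genes had 1, at Prf1, with pileups of 46, 35 and 21 in control mice and 57, 58 and 73 in HADA mice (difference 0.32 ± 0.27, adjusted p = 0.360), and Klrk1 had none. The gene lists were chosen with earlier results of these data known. The counts moved with the measure: over background 9 T-cell, 8 B-cell and 0 neutrophil regions were higher and 1, 0 and 6 lower, whereas by fold rank 1, 0 and 1 were higher and no region of these 3 lists was lower. Over background 2 monocyte regions were higher and 4 lower, and 1 general leukocyte region was higher and 3 lower. By fold rank each of these other two lists had 1 region higher and 1 lower. The part that the mix of cells plays in the differences at the 9 genes was not tested.

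**Figure D5:**
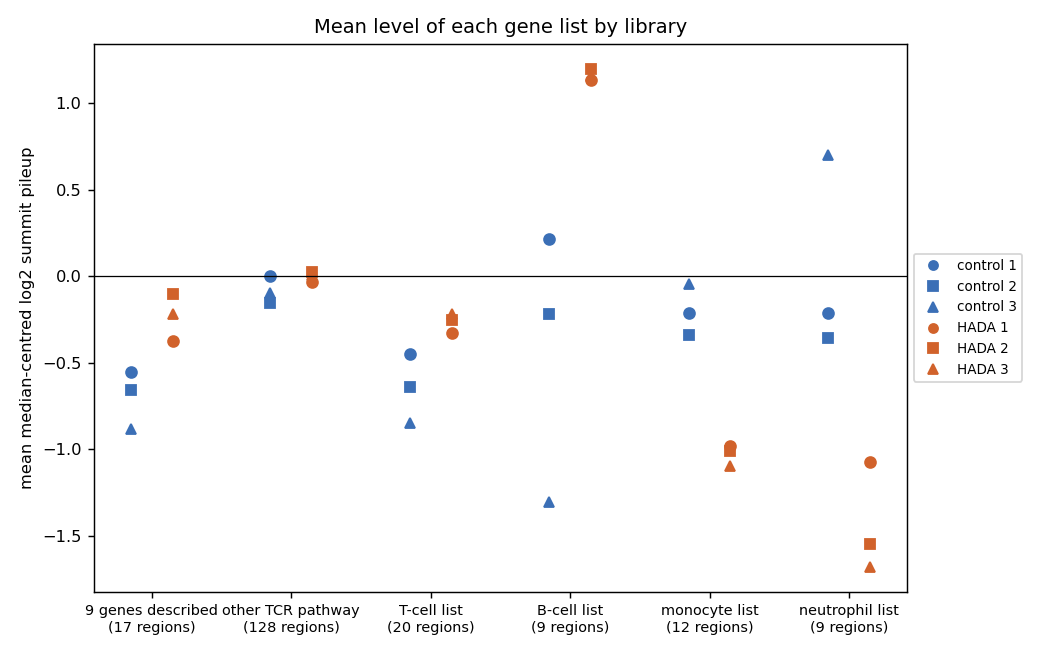
Mean median-centred log2 summit pileup over the regions of each gene list in each library, blue for control and orange for HADA, with 0 as the median of all regions. The 17 regions of the 9 genes lie between −0.88 and −0.55 in control mice and between −0.38 and −0.10 in HADA mice, the B-cell list is higher and the neutrophil and monocyte lists are lower in every HADA library than in any control library, and control 3 is the lowest library of the B-cell list and the highest of the neutrophil list.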

How the data were processed

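ATAC-seq libraries of unsorted peripheral-blood leukocytes from 3 control and 3 HADA mice were grouped by the labels. Per the labels and the study's methods, the authors used Trimmomatic for trimming, Bowtie2 for alignment to GRCm39 and Picard for duplicate removal, and ran MACS2 on each library alone. The MACS2 options and any shift for Tn5 insertion are not given in the sources used here, so summits may lie some bases from the insertion sites. The deposited lists give each peak a fold enrichment over local background (a ratio), its p-value and q-value as −log10, a whole-number score and a summit position. No read totals were used here.

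The summit pileup and the local background were solved from the deposited fold, (pileup + 1) / (background + 1), and the −log10 Poisson p-value, which succeeded for 100% of peaks in every library. Fragments of a library are counted after removal of duplicates, and the pileup carries counting error beside the spread between mice. Peaks sharing 1 bp were merged into regions on the main chromosomes, and summits were assigned with GENCODE M39 (GRCm39, coordinates 1-based). Log2 pileups of the 23970 regions listed in all 6 libraries were centred on the library median and compared with limma 3.58.1 in R 4.3.3 (empirical Bayes with trend), with Benjamini-Hochberg adjustment over all of them and a threshold of 0.05.

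All regions of the 9 genes are accounted for. Values in every library are given for the region nearest a start, for called regions and for regions found in all libraries of 1 group only, and of other pathway genes the 3 with the smallest p-values in each direction were selected, of which 1 is not reported here. The members, gene lists and core sequences were chosen with earlier results of these data known. Alternatives were scaling by background, fold rank, no trend, a replicate block, each library left out, a −log10 q-value of at least 5, merging at 200 bp, equal list lengths, and summits within 3 kb of a start.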

Additional observations from a re-analysis of the deposited data

How the results depend on the processing

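The counts moved with the scaling, the libraries kept and the peaks admitted. Over background, 11 regions of the 9 genes were higher (median 0.97) and 46 and 10 pathway regions higher and lower, and 64.6% of all calls were higher against 43.0% after centring. By fold rank, 1 region was higher (median 0.26 in normal scores) and 14 and 5 pathway regions were called. The sign of single regions that did not pass the test turned: over background Cd28 +9.64 kb was 0.35 and Cd3d +4.88 kb 0.070, and by fold rank Cd28 +12.07 kb was −0.073, Cd247 +49.06 kb −0.19, Lck +0.05 kb −0.040 and Cd3d +4.88 kb 0.014. With libraries left out in turn, 1 (without HADA 2) to 8 regions of the 9 genes were higher, 9 to 32 pathway regions higher and 7 to 19 lower, and 3 to 5 regions were in all HADA and no control libraries. Of all regions, 5.4% to 20.6% were higher in these fits (15.8% without control 2, which gave the 8), 11.7% to 24.7% lower, and 7.36% to 11.4% in all HADA and no control libraries. Across the same fits Cd28 +9.64 kb ranged from −0.22 to 0.21, Cd28 +12.07 kb from −0.13 to 0.24, Cd247 +49.06 kb from −0.12 to 0.22 and Cd247 +75.19 kb from −0.24 to 0.44. The count of regions in all HADA and no control libraries was 0 with equal list lengths and 0 within 3 kb of a start, where the difference in peaks per 10000 was −0.11. The causes of these shifts were not tested. No direction turned among the 6 regions called, and 0 regions of the 9 genes were lower under any alternative run.

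With the replicate number as a replicate block, 4 regions of the 9 genes were higher, 24 pathway regions higher and 15 lower, against 13.9% of all 23970 regions higher and 24% lower. The adjusted p rose to 0.109 at Cd3e and 0.0611 at Cd5 −1.83 kb, and no other call at the 9 genes changed. Deviations of same-numbered libraries correlated at −0.08, 0.08 and −0.38, and those of differently numbered libraries at −0.47 to 0.49. With 3 libraries a group, such values cannot decide whether the numbers pair the samples.

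A region without a peak in a library has no value, so regions weak in 1 group are compared only by presence, and pileups near the lowest listed, 7 to 9 fragments, leave little room to detect a lower value.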
